A study of Mus musculus with 59 samples.

Results

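The genes Npl, Gldc, Sptlc3, Cyp2a5, Ano2 and Rims3 are 6 of the 21706 genes measured in the uterus of mated mice. They were chosen by symbol for their rise in the luminal epithelium (LE) from near 0 on day 0.5 post coitum (D0.5) to day 3.5 (D3.5), so that rise is described below and not tested. RNA was sequenced from 59 libraries of 29 female mice of about 2 to 6 months that had mated with wild-type males. The controls carried 1 floxed and 1 null allele of the estrogen receptor gene Esr1 (Esr1f/-). The knockouts (epiERα-/-) carried the same alleles and Wnt7aCre, a Cre recombinase driven by Wnt7a in epithelium, so every mouse lacked 1 working copy of Esr1 in all tissues. LE sheets were scraped from uterine horns after dispase, a neutral protease. A whole piece of frozen horn (U) and a piece of digested horn (DU) were taken from many of the same mice. LE was sequenced from 9 control and 7 knockout mice at D0.5 and from 4 and 6 at D3.5. The U libraries numbered 6 and 4 at D0.5 and 5 and 5 at D3.5, and the DU libraries 4 and 3 at D0.5 and 3 and 3 at D3.5.

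The luminal epithelium is the cell layer that lines the uterine cavity and that the embryo meets when it attaches. Between mating and attachment the uterus passes from a phase dominated by estrogen, which acts through Esr1, to one dominated by progesterone, which acts through the receptor Pgr. The epithelium stops dividing, its secretion changes and it becomes receptive. The 6 genes belong to separate processes. Npl encodes N-acetylneuraminate pyruvate lyase, which breaks down sialic acid. Gldc encodes the glycine decarboxylase of the mitochondrial glycine cleavage system, and Sptlc3 a subunit of serine palmitoyltransferase, the enzyme that starts sphingolipid synthesis. Cyp2a5 encodes a cytochrome P450 that oxidises coumarin and nicotine. Ano2 encodes a calcium-activated chloride channel and Rims3 a small protein of the RIM family, known from vesicle release at synapses.

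The libraries held 13.5 to 80.3 M estimated counts in LE, 11.3 to 108 M in U and 14.1 to 46.2 M in DU (M, mega). Levels are given as CPM, counts scaled to library size over all 59 libraries. Each tissue had its own RNA isolation batch, and differences between tissues cannot be told apart from it. The deleted gene Esr1 was lower in knockout LE at D0.5 (log2 difference -2.02 ± 0.19 (SE), adjusted p = 2.97e-08) and at D3.5 (-1.09 ± 0.23, adjusted p = 0.00169, edgeR). Its levels did not overlap between genotypes in LE on either day. In U at D3.5 they did, and the library labelled knockout of mouse 33 held 193 CPM of Esr1 against 123 to 179 CPM in the controls. Pgr rose from D0.5 to D3.5 in LE of controls (3.44 ± 0.30, adjusted p = 7.5e-10) and of knockouts (3.31 ± 0.31, adjusted p = 4.06e-09). Summed epithelial markers (Epcam, Cdh1, keratins and claudins) were between 3929 and 15291 CPM in LE and between 483 and 1226 CPM in U at D3.5. In U at D0.5 they were between 1346 and 6839 CPM, which overlaps the LE range. None of the 7 was at 0 throughout a group. The 8 stromal fibroblast markers (Dcn, Col1a1 and others) summed to between 645 and 6913 CPM in LE and between 9188 and 21667 CPM in U. The part of stromal cells in the LE levels was not tested.

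Promoter sequences of all 6 genes were available from RefSeq (GRCm38.p6, 8 windows of 300 bases, each with 250 bases before the start site). Cyp2a5 is shown beside Cyp2a4, its close relative on the same chromosome, because the pair differed widely in level. Npl is shown because its genotype difference changed direction between days. Each run is the 250 bases before the start site, 5′ to 3′. Capitals in the Cyp2a pair mark the 4 bases that differ between them, and Npl carries no capitals.
Cyp2a5, chr7:26835089-26835338, plus strand: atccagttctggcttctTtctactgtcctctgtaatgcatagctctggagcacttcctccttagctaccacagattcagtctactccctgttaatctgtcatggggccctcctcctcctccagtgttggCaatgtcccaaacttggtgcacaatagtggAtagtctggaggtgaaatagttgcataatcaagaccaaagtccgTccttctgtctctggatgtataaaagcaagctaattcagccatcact
Cyp2a4, chr7:26306942-26307191, plus strand: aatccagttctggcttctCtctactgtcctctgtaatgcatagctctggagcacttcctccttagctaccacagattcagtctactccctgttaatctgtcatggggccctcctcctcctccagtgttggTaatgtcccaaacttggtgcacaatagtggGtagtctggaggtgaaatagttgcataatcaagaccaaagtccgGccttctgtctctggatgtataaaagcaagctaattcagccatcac
Npl, chr1:153549715-153549964, minus strand: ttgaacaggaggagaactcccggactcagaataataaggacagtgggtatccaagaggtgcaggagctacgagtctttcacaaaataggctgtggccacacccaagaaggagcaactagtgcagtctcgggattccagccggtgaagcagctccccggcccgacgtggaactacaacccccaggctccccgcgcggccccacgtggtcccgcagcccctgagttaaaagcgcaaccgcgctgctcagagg

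Over 299 aligned bases the Cyp2a5 and Cyp2a4 windows differed at 5, an identity of 98.3%. The palindromic estrogen response element, GGTCA and TGACC with 3 bases between them, was present in 23 of 32851 promoter windows of this length (0.07%), and a progesterone receptor type element, GNACA and TGTNC with 3 bases between them, in 156 (0.475%), on either strand. Neither was found in the 8 windows of the 6 genes. The single estrogen receptor arm GGTCA, searched after these results were known, was found in 2 of the 3 Ano2 windows, at bases -148 and -128 from the start site, and in the Cyp2a5 and Cyp2a4 windows at bases 29 and 30 after it, outside the stretches printed above. All 4 matches were on the strand opposite to the gene. It occurs in 40.5% of all windows, and the palindrome contains it. The arm TGTTCT was found in none of the 8 windows and in 19% of all windows.

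In control LE all 6 genes were at or under 1.57 CPM at D0.5. At D3.5 their mean levels in control LE were 980 CPM for Rims3, 933 for Npl, 88.1 for Gldc, 33.7 for Ano2, 18.1 for Sptlc3 and 0.872 for Cyp2a5. The day difference chose the genes and carries no test here. Of all genes tested in LE, 21.2% were called higher at D3.5 in controls and 21.4% in knockouts (edgeR, adjusted p under 0.05). In knockouts 51.4% of the calls were higher at D3.5 on counts and 77.8% on log2(TPM + 1). The ratio of the D3.5 to the D0.5 mean in controls was 2736 for Npl, 1129 for Rims3, 747 for Sptlc3, 599.9 for Gldc and 12.8 for Cyp2a5. The ratios of Sptlc3 and Cyp2a5 rest largely on 1 D0.5 library each, which was left out in turn after the values were seen. Without mouse 1 the D0.5 controls held 2 counts of Sptlc3, and the ratio was 3156 (874 to 26058 by the exact Poisson interval of those counts). Without mouse 3 they held no count of Cyp2a5, and its level was at least 58.3-fold higher at D3.5, taken against 3 counts over the group. Ano2 had no count in any D0.5 library, so its level was at least 2410-fold higher in controls and at least 1009-fold higher in knockouts at D3.5, taken against 3 counts over the group. Cyp2a5 in control LE was therefore a gene of low level on both days, unlike the other 5.

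**Figure D1:**
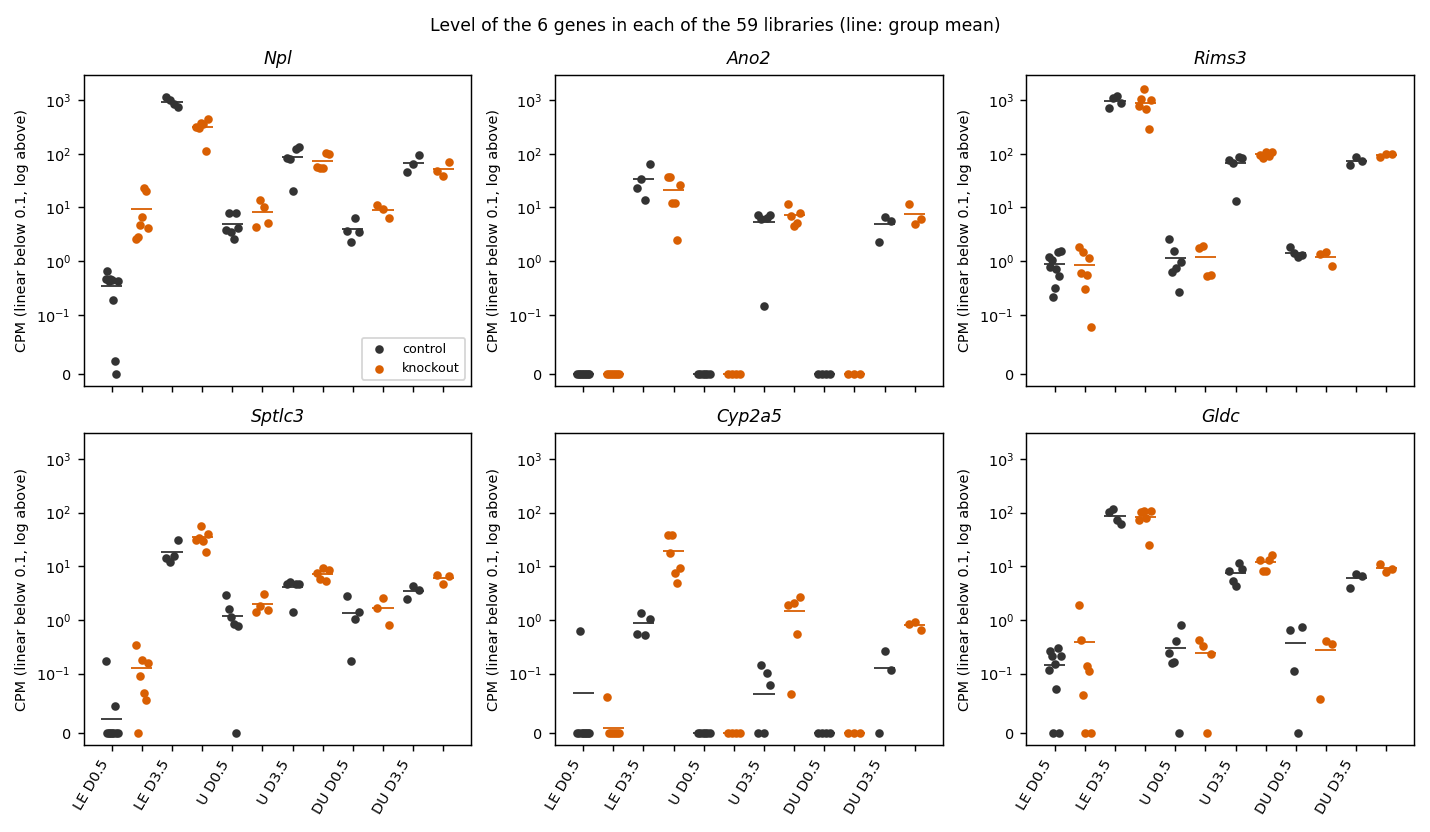
Level of each gene in CPM in every library, with points for libraries and lines for group means; each labelled tissue and day has controls (dark) on the left and knockouts (orange) on the right. The axis is linear below 0.1 and logarithmic above. Within each genotype the group mean of all 6 genes is highest in LE at D3.5. Npl is lower and Cyp2a5 higher in knockout than in control LE on that day, and Ano2 is at 0 in all D0.5 libraries.

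Levels per transcript length (TPM, transcripts scaled to a fixed total per library) allow the genes to be ordered in LE at D3.5. In controls Npl was highest at 617 ± 135 TPM (SD, n = 4), followed by Rims3 at 161 ± 69.3, Gldc at 24.7 ± 8.51, Sptlc3 at 8.71 ± 3.87, Ano2 at 8.65 ± 5.01 and Cyp2a5 at 0.538 ± 0.205. Only Sptlc3 and Ano2 overlapped among neighbours in that order. In knockouts Npl was at 274 ± 98.8 TPM (SD, n = 6), Rims3 at 183 ± 82.3, Gldc at 29.8 ± 11.6, Sptlc3 at 21.6 ± 7.02, Cyp2a5 at 13.3 ± 9.77 and Ano2 at 7.26 ± 4.88. In the knockouts Rims3 and Gldc did not overlap and every other pair of neighbours did, and Cyp2a5 stood above Ano2 in the order of means.

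**Figure D2:**
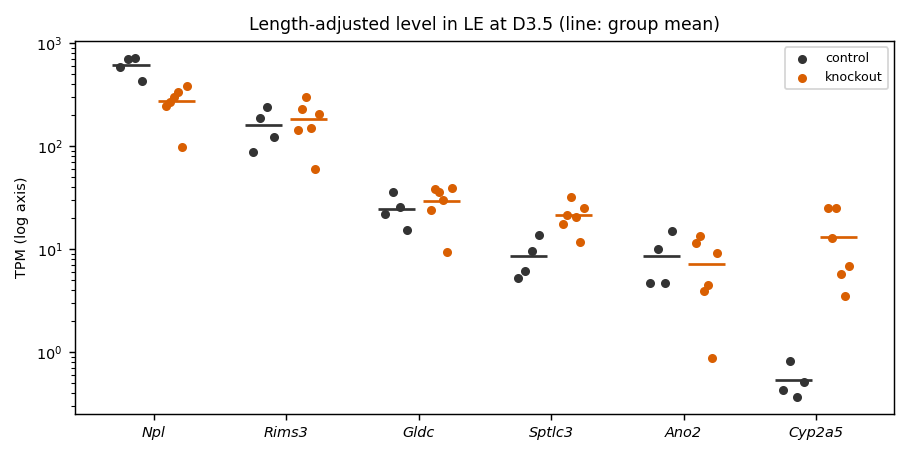
TPM on a logarithmic axis in the LE libraries of D3.5, controls (dark, n = 4) and knockouts (orange, n = 6), with lines for group means. Npl spans 436 to 727 TPM in controls and 99.0 to 388 in knockouts, and Cyp2a5 0.370 to 0.832 in controls and 3.56 to 25.4 in knockouts.

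The first comparison asks whether the 6 genes depended on epithelial Esr1 in LE. It uses the same LE libraries whose day difference chose the genes, so its p-values are not independent of that choice. At D0.5, 2 of the 6 were called higher in knockout than in control LE, Npl and Sptlc3, and 0 lower (edgeR). Over all genes tested 10.9% were called higher and 12.6% lower. At D3.5, 1 was called higher, Cyp2a5, and 1 lower, Npl, where 7.79% of all genes were called higher and 5.7% lower. On the log2(TPM + 1) scale the median of all genes at D3.5 was shifted by 0.38 towards the knockout, against -0.01 on counts. The share of calls that were higher was 57.7% on counts and 90.2% on TPM. Rims3 and Gldc were not called on either day. Ano2 was not called at D3.5 and, with no count in LE at D0.5, could not be called on that day.

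Npl was the gene whose level differed by genotype on both days, in opposite directions. At D0.5 the 9 control LE libraries ranged from 0 to 0.649 CPM with a median of 0.428. The 7 knockout libraries ranged from 2.56 to 23.3 CPM with a median of 4.70. Every knockout library was above every control library, and mice 25 and 26, at 23.3 and 20.3 CPM, were well above the other knockouts. The knockout mean was 26.9-fold the control mean, and the fitted log2 difference was 4.78 ± 0.54 (SE), adjusted p = 3.51e-07 (edgeR), between 4.36 and 4.95 when any 1 library was left out. A level near 0 at D0.5 was part of the choice of Npl, so this test is not independent of it.

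At D3.5 Npl stood at 1142, 990, 859 and 742 CPM in the 4 control LE libraries. The 6 knockout libraries ranged from 112 to 444 CPM with a median of 338. The genotypes did not overlap, with mouse 36 the lowest knockout. The knockout mean was 34.2% of the control mean and the fitted log2 difference was -1.59 ± 0.52, adjusted p = 0.0414 (edgeR). The call was lost when any of 8 of the 10 libraries was left out (controls 11, 14, 15 and 16, knockouts 31, 32, 35 and 36), with log2 differences of -1.71 to -1.42 and adjusted p up to 0.101. It was also lost without knockout mice 35, 36 and 37 together, a set taken from an earlier account of these data (-1.51, adjusted p = 0.184) and on log2(TPM + 0.1) (adjusted p = 0.0739, limma). On log2(TPM + 1) the difference was -1.25, or -1.63 relative to the median of all genes, with adjusted p = 0.0183 (limma).

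The Npl mean at D3.5 was 2736-fold that at D0.5 in control LE and 34.8-fold in knockout LE. The fitted knockout difference at D3.5 minus that at D0.5 was -6.37 ± 0.76 on the log2 scale, given with no test because it contains the day contrast that chose the gene.

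Markers of other cell types also stood at other levels in the genotypes in LE at D0.5. The summed level of 6 neutrophil markers (S100a8, S100a9, Retnlg, Ly6g, Mmp8, Cxcr2) ranged from 870 to 3306 CPM in knockouts and from 19.9 to 362 in controls, with none at 0 throughout a group. The 6 macrophage markers summed to 134 to 166 CPM in knockouts and 213 to 493 in controls, and the epithelial markers to 3929 to 7174 in knockouts and 7537 to 15291 in controls. The 5 oviduct markers summed to 78.4 to 111 CPM in knockouts and 145 to 453 in controls. None of these 4 sums overlapped between genotypes. The 8 gland markers overlapped, at 1568 to 3084 CPM in knockouts (median 2070) and 2458 to 6603 in controls (median 5458). Of these markers Prss28 and Prss29 had no count in any control, and none was at 0 throughout the knockouts. The knockout libraries with the highest Npl, mice 25 and 26, held 870 and 1369 CPM of neutrophil markers, and mouse 27, with 3306 CPM of those, held 4.11 CPM of Npl. The part of these cells in the Npl difference was not tested. At D3.5 the neutrophil sum was 3.24 to 11.9 CPM in both genotypes together, and the erythroid sum was 569 to 2974 CPM in controls and 33.5 to 574 in knockouts. The part of blood cells in the D3.5 difference was not tested.

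**Figure D3:**
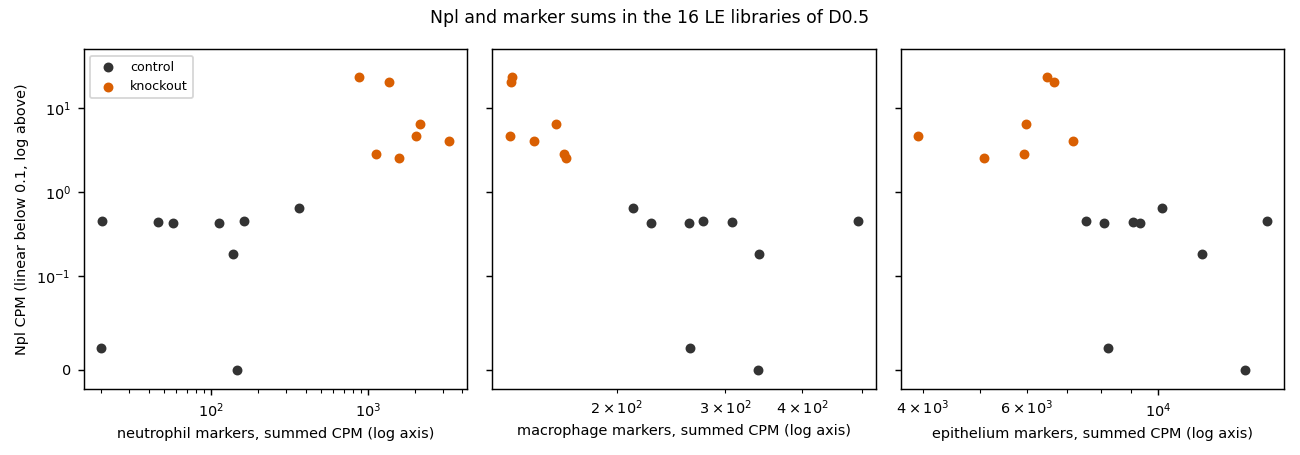
Npl in CPM (linear below 0.1, logarithmic above) against the summed CPM of neutrophil, macrophage and epithelial markers (logarithmic axes) in the 16 LE libraries of D0.5, controls dark and knockouts orange. Knockouts lie above 2.5 CPM of Npl and above 870 CPM of neutrophil markers; the 2 with most Npl, at 23.3 and 20.3 CPM, have 870 and 1369 CPM of neutrophil markers.

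Npl in whole and digested horn at D0.5 lay higher than in control LE. In U the 6 controls ranged from 2.61 to 7.82 CPM with a median of 3.97. The 4 knockouts held 4.29, 13.8, 10.1 and 5.03 CPM. Ranges overlapped, and the difference was not called (0.74 ± 0.43, adjusted p = 0.445, edgeR). In DU the controls held 3.59, 2.26, 6.41 and 3.43 CPM and the knockouts 11.1, 9.40 and 6.33 CPM. The lowest knockout lay just under the highest control. Npl was called higher in knockout DU (1.18 ± 0.34, adjusted p = 0.0475, edgeR), the only 1 of the 6 genes called there, where 3.89% of all genes were called higher and 4.17% lower. Ano2 and Cyp2a5 had no count in DU at D0.5 and could not be called. Of the calls in DU at D0.5, 48.2% were higher on counts and 24.9% on log2(TPM + 1). The call was lost in 6 of the 7 fits that left out 1 library (controls 1, 5 and 9, knockouts 25, 26 and 27; adjusted p up to 0.155), with limma voom (adjusted p = 0.147) and in the fit of the D0.5 groups alone (adjusted p = 0.123). Neutrophil markers summed to 912 to 2236 CPM in knockout and 59.9 to 371 in control DU at D0.5, and their part was not tested.

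At D3.5 Npl stood at 82.2, 79.7, 20.5, 124 and 133 CPM in control U and at 56.5, 55.2, 54.9, 105 and 99.0 in U labelled knockout. In DU it stood at 45.4, 65.7 and 93.1 CPM in controls and 47.6, 38.6 and 70.7 in knockouts. Genotypes overlapped in both tissues. The log2 differences were -0.25 ± 0.41 in U (95% interval -1.05 to 0.55) and -0.38 ± 0.33 in DU (-1.03 to 0.27), neither called.

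Gldc, the glycine decarboxylase, ranged from 0 to 0.298 CPM in the 9 control LE libraries at D0.5 with a median of 0.148. In the 7 knockout libraries it ranged from 0 to 1.92 CPM with a median of 0.112. The 1.92 CPM of knockout mouse 21 set the upper end, and the next knockout was at 0.422. At D3.5 the control LE libraries held 101, 117, 72.1 and 61.8 CPM, and the 6 knockouts ranged from 25.0 to 108 with a median of 91.1. All knockouts but mouse 36 lay within the control range. The D3.5 log2 difference was -0.14 ± 0.58 on counts (95% interval -1.27 to 1.00, adjusted p = 0.917, edgeR) and 0.19 on log2(TPM + 1), so its direction depended on the scale.

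In the horn Gldc was under 0.8 CPM in all D0.5 libraries. At D3.5 control U held 8.14, 5.39, 4.35, 11.3 and 8.70 CPM and U labelled knockout 12.8, 8.11, 8.10, 13.2 and 16.5. In DU the controls held 3.97, 7.22 and 6.64 CPM and the knockouts 10.8, 7.92 and 8.69. The DU groups did not overlap, which groups this small can do by chance, and the difference was not called (0.62 ± 0.64, adjusted p = 0.869, edgeR).

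Sptlc3, of serine palmitoyltransferase, had a count in 2 of 9 control and 6 of 7 knockout LE libraries at D0.5. Its highest level there was 0.172 CPM in controls and 0.335 in knockouts, with 5 counts in all controls together and 21 in all knockouts. It was called higher in the knockout (2.25 ± 0.70, adjusted p = 0.0191, edgeR). The call was lost without knockout mouse 21 (adjusted p = 0.106), and with limma voom (adjusted p = 0.161). In the fit of the D0.5 groups alone Sptlc3 did not pass the filter on low counts. At D3.5 the control LE libraries held 13.9, 12.0, 15.2 and 31.2 CPM, and the knockouts ranged from 18.4 to 56.1 with a median of 32.4. Controls were lower apart from mouse 16, which lay within the knockout range. The log2 difference of 0.92 ± 0.47 was not called with edgeR (adjusted p = 0.22) and was called with limma voom (1.01, adjusted p = 0.00832) and on log2(TPM + 1) (1.24, adjusted p = 0.000184, limma). On that TPM scale the median of all genes was itself shifted by 0.38 towards the knockout, and 90.2% of the calls were higher.

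Sptlc3 was the gene least tied to LE at D0.5. In U it ranged from 0 to 2.89 CPM with a median of 0.990 in the 6 controls, and the 4 knockouts held 1.38, 1.79, 3.05 and 1.55. All but 1 of these 10 U libraries lay above every LE library of that day. At D3.5 control U held 4.73, 5.00, 1.40, 4.62 and 4.70 CPM and U labelled knockout 7.52, 5.72, 9.32, 5.30 and 8.64. The control DU libraries held 2.49, 4.29 and 3.66 CPM and the knockouts 6.73, 4.65 and 6.58. Knockouts lay above controls in both tissues without overlap in CPM, and in U they overlapped in TPM. Groups this small can part by chance, and the share of all genes that did so is not given here. Neither difference was called (0.83 ± 0.50 in U, adjusted p = 1; 0.78 ± 0.61 in DU, adjusted p = 0.811, edgeR).

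Cyp2a5 at D0.5 had counts in 1 of 9 control and 1 of 7 knockout LE libraries (0.611 CPM in mouse 3 and 0.0609 CPM in mouse 21), and none in U or DU. At D3.5 the 4 control LE libraries held 0.548, 1.37, 0.519 and 1.05 CPM. The knockout libraries of mice 31, 32, 34, 35, 36 and 37 held 38.2, 17.3, 37.6, 7.44, 4.77 and 9.37 CPM. All 6 knockouts were above all 4 controls, and the first 3 were above the last 3. The knockout mean was 21.9-fold the control mean, and the log2 difference was 4.42 ± 0.97, adjusted p = 0.00253 (edgeR). Cyp2a5 passed the filter on low counts only through the knockout libraries, and without that filter the difference was 4.43 (adjusted p = 0.00261, edgeR). The mean at D3.5 was 19.1 CPM in knockouts and 0.872 in controls. The rise that chose the gene thus lay mainly in the knockout values compared here, and the test is not independent of that choice.

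In the horn at D3.5 the Cyp2a5 levels of the genotypes were in the same order at lower values. Control U held 0, 0.142, 0, 0.103 and 0.0802 CPM, and U labelled knockout of mice 32, 33, 34, 35 and 37 held 1.91, 0.0661, 2.08, 0.537 and 2.64. The library of mouse 33, whose Esr1 was above every control, lay within the control range and the other 4 above it. The difference was not called (4.21 ± 1.02, adjusted p = 0.31, edgeR). Without mouse 33 it was called (4.70, adjusted p = 0.0355). DU held 0, 0.264 and 0.117 CPM in controls and 0.830, 0.929 and 0.656 in knockouts. The groups did not overlap, which 3 libraries each can do by chance, and the difference was not called (2.51 ± 0.91, adjusted p = 0.501, edgeR). In U and DU too, Cyp2a5 passed the filter on low counts only through knockout libraries of D3.5 (4 in U and 3 in DU). Its p-values there give no separate support for a genotype difference.

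Cyp2a4 had no count in any LE or U library and 2 counts in 1 control DU library of D0.5. In GENCODE M21 transcripts 44.9% of the 31-base words of Cyp2a5 also occur in Cyp2a4, and 54.6% occur in some other gene. Counts of Cyp2a5 thus rest on how the authors' software divided shared reads, and the division between these genes was not tested. For the other 5 genes at most 3.69% of the words were shared.

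Ano2, the chloride channel gene, had no count in the 33 libraries of D0.5 in any tissue, which allows up to 0.014 CPM in control LE and 0.021 in knockout LE (3 counts over the group, counting error only). At D3.5 control LE held 22.6, 34.6, 13.8 and 63.6 CPM, and the 6 knockouts ranged from 2.45 to 37.6 with a median of 19.3. The groups overlapped, and 1 control lay above all knockouts. The log2 difference was -0.71 ± 0.61 (95% interval -1.91 to 0.48, adjusted p = 0.525, edgeR). Control U held 7.37, 6.04, 0.144, 6.32 and 7.34 CPM and U labelled knockout 11.5, 6.78, 4.49, 5.20 and 7.83. DU held 2.22, 6.77 and 5.54 CPM in controls and 11.5, 4.97 and 6.14 in knockouts. The genotypes overlapped in both, and control mouse 13 was far under the other 4 control U libraries.

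Rims3, of the RIM family, ranged from 0.211 to 1.57 CPM in control LE at D0.5 with a median of 0.778, and from 0.079 to 1.84 in knockouts with a median of 0.603. At D3.5 control LE held 726, 1106, 1213 and 877 CPM, and the knockouts ranged from 288 to 1596 with a median of 889. The genotypes overlapped on both days. The D3.5 difference was -0.16 ± 0.45 on counts (95% interval -1.04 to 0.72, adjusted p = 0.867, edgeR) and 0.13 on log2(TPM + 1). The Rims3 mean at D3.5 was 1129-fold that at D0.5 in control LE and 1052-fold in knockout LE. At D3.5 it stood at 77.3, 68.6, 13.1, 88.7 and 82.2 CPM in control U and at 93.7, 82.3, 108, 91.0 and 110 in U labelled knockout. DU held 61.7, 89.0 and 73.7 CPM in controls and 85.4, 97.9 and 101 in knockouts. Genotypes overlapped, with control mouse 13 again the lowest.

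**Figure D4:**
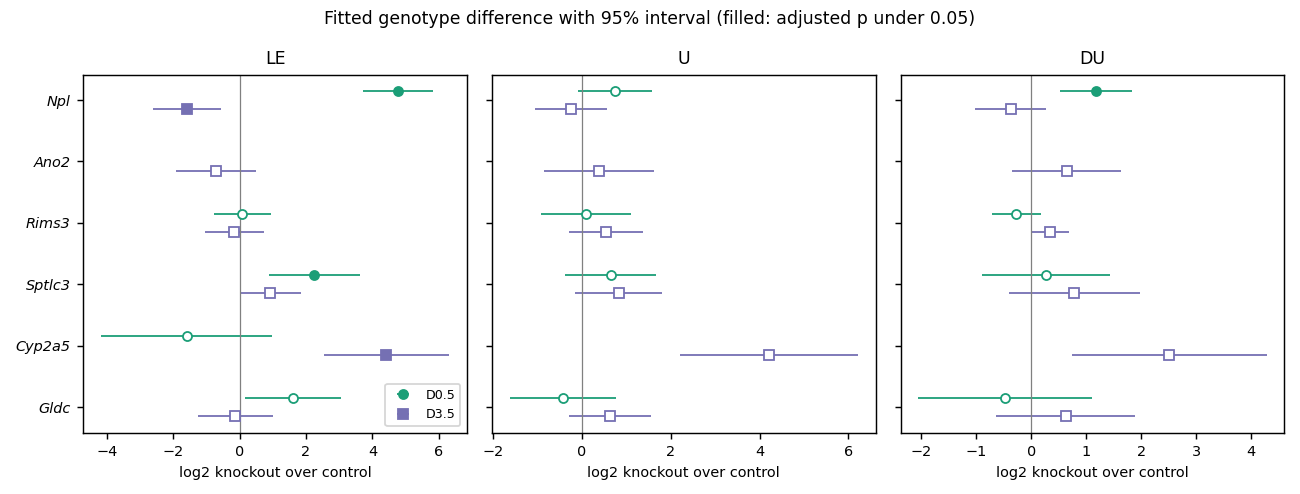
Fitted log2 ratio of knockout over control with 95% intervals, by tissue and day (green circles D0.5, violet squares D3.5), filled where the adjusted p was under 0.05; genes with no count in both groups have no point. In LE, Npl lies at 4.78 at D0.5 and at -1.59 at D3.5, and Cyp2a5 at 4.42 at D3.5.

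In U no gene of the 6 was called between genotypes at D0.5, where 2.02% of all genes were called higher and 2.96% lower, and none at D3.5 (0.0185% and 0%). None was called in DU at D3.5 (0.117% and 0.457%). Ano2 and Cyp2a5 had no count in U at D0.5 and could not be called on that day. DESeq2 and limma voom called none of the 6 in these 3 comparisons either. At an unadjusted p under 0.05 edgeR gave 0 of the 6 and 2629 of all genes in U at D0.5, 1 and 682 in U at D3.5, and 1 and 1319 in DU at D3.5. That 1 gene was Cyp2a5 in both, where it passed the filter on low counts only through knockout libraries.

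The second comparison was the day difference in horn tissue, which itself holds LE and came largely from the same mice. The genes were chosen for their rise between these days, so the p-values here are not independent of that choice. All 6 passed the filter on low counts, but Ano2, Cyp2a5 and Gldc passed only through D3.5. Too few D0.5 libraries held enough counts of Gldc (2 of 10 in U and 2 of 7 in DU), and none held Ano2 or Cyp2a5. A rise of these 3 was therefore given by the filter, and their day differences are a description. Npl, Rims3 and Sptlc3 passed on the D0.5 libraries as well. Npl and Rims3 were called higher at D3.5 in control and knockout U and in control and knockout DU (edgeR). Sptlc3 was called in control U, knockout U and knockout DU, and not in control DU (adjusted p = 0.11). Of all genes tested, 16.2% were called higher at D3.5 in U of controls, 10.9% in U of knockouts, 15.9% in DU of controls and 12.9% in DU of knockouts. On log2(TPM + 1) the median of all genes was shifted towards D3.5 by 0.15 to 0.22 in these comparisons. The share of calls that were higher then rose from between 42.7% and 47.4% on counts to between 58.2% and 68%.

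Rims3 had the largest fitted day difference in U and DU among these 3 genes. It was 5.77 ± 0.50 (adjusted p = 3.36e-08) in control U, 6.24 ± 0.61 (2.45e-07) in knockout U, 5.60 ± 0.20 (3.69e-09) in control DU and 6.21 ± 0.23 (8.66e-09) in knockout DU (edgeR adjusted p). The log2 differences of Npl were 2.49 to 4.10. Those of Gldc, given with no test, were 3.85 to 5.48. Sptlc3 rose least, by 1.69 ± 0.49 in control U (adjusted p = 0.0113) and 1.87 ± 0.56 in knockout U (0.0173, edgeR). Its calls in knockout U and knockout DU were lost when single libraries were left out (without knockout 21 in U, and without 25, 27, 32, 34 or 35 in DU), and in DU also without the filter on low counts (adjusted p = 0.0512). In control DU it was called on log2(TPM + 1) (adjusted p = 0.0253, limma) and without control library 1 (adjusted p = 0.0167).

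Over the same days the summed epithelial markers were lower at D3.5 in the horn. They went from 2129 to 6839 CPM at D0.5 to 524 to 1226 CPM at D3.5 in control U, and from 1346 to 2020 CPM at D0.5 to 483 to 1210.4 CPM at D3.5 in knockout U. In bulk tissue fewer cells of a type and less RNA per cell cannot be told apart.

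The day difference could be compared between genotypes for the 4 genes with counts on both days. None was called in U, where 0.943% of all genes were called higher and 0.487% lower, or in DU (0.945% and 0.932%). In DU 50.3% of the calls were higher on counts and 63.5% on log2(TPM + 1). With edgeR at an unadjusted p under 0.05 these were 0 of the 4 and 1684 of all genes in U, and 1 and 2546 in DU. The 1 gene in DU was Npl, whose rise was smaller in knockouts by -1.56 ± 0.47 (adjusted p = 0.118). It was called with DESeq2 (-1.56, adjusted p = 0.0309) and without control library 8 (adjusted p = 0.0486). In U the Npl value was -0.99 ± 0.60 (95% interval -2.16 to 0.17, adjusted p = 0.683).

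The third comparison places the genes within the organ. In the 7 mice with both LE and U at D3.5 every gene was higher in LE in 7 of 7, and in the 6 mice with LE and DU in 6 of 6. The median ratio of LE to U was 10.7 for Rims3 (range 7.61 to 14.8), 8.12 for Gldc (5.88 to 13.3), 5.60 for Npl (3.44 to 13.9), 4.62 for Sptlc3 (2.59 to 6.65), 3.28 for Ano2 (2.33 to 8.67) and 13.3 for Cyp2a5, whose lowest ratio was 3.54. The lowest ratio for Rims3 was above the highest for Sptlc3, and all other pairs of ranges overlapped. These ratios are a description, since high LE levels at D3.5 chose the genes, and 29.2% of all genes tested were called higher in LE than in U at D3.5. The fitted log2 differences were 3.60 ± 0.36 for Rims3, 3.23 ± 0.42 for Gldc, 2.81 ± 0.37 for Npl, 2.25 ± 0.36 for Sptlc3, 2.15 ± 0.50 for Ano2 and 3.65 ± 0.69 for Cyp2a5. At D0.5 the order was different for Sptlc3, which was lower in LE than in U in all but 1 of the 10 mice and at 0 in both in that mouse, and for Npl, lower in LE in 8 of 10. Rims3 was higher in LE than in U in 5 of these 10 mice and Gldc in 4.

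**Figure D5:**
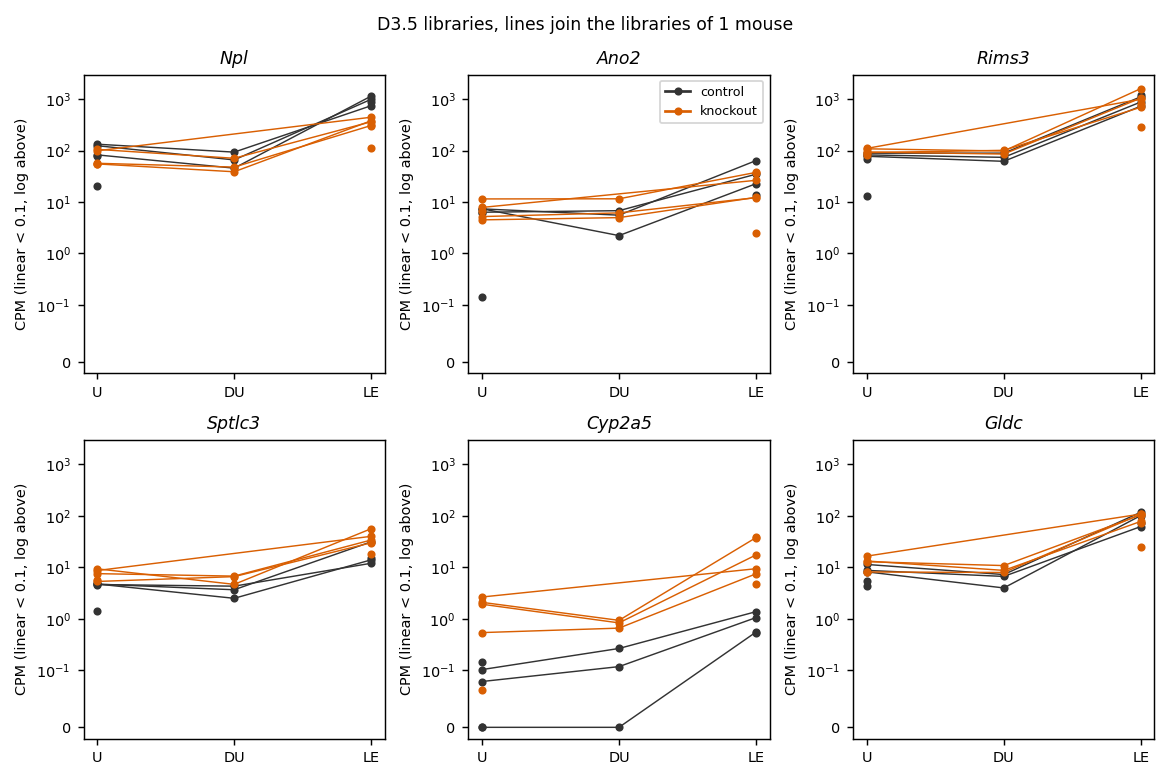
CPM at D3.5 in U, DU and LE (linear below 0.1, logarithmic above), with lines joining libraries of 1 mouse, controls dark and knockouts orange. All 6 genes are highest in LE in every mouse with more than 1 tissue, and the U library of control mouse 13 is the lowest U library for Npl (20.5 CPM), Rims3 (13.1), Ano2 (0.144), Sptlc3 (1.40) and Gldc (4.35).

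Dispase digestion was checked by comparing DU with U at D3.5. The main fit did not use the pairing of U and DU libraries from the same mice. In it none of the 6 genes was called, and 0% of all genes were called higher or lower. With edgeR at an unadjusted p under 0.05 the counts were 0 of the 6 and 1561 of all genes, and DESeq2 and limma voom called none of the 6. With the mouse as a block, in mice with both tissues, Npl was called lower in DU (-0.61, adjusted p = 0.00438, edgeR), against -0.45 ± 0.31 without it. The share of all genes called with the block is not given here, so the unpaired fit does not show that digestion left levels unchanged. Npl was lower in DU in 6 of 6 mice, at a median ratio of 0.687. Gldc was lower in 6 of 6 as well, at ratios of 0.487 to 0.978, but was not called. Summed epithelial markers were also lower in DU than in U in all 6 mice. In U of mice 11, 14, 16, 32, 34 and 35 they were 627, 1226, 1071, 836, 974 and 990 CPM. In DU of these mice they were 397, 717, 716, 613, 569 and 666 CPM. The part of epithelial content in the lower Npl and Gldc was not tested.

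Over the means of the 12 groups of tissue, day and genotype, Ano2, Rims3 and Gldc had the highest correlations with each other. On log2(CPM + 0.5), Pearson's r was 0.995 for Ano2 and Rims3, 0.992 for Rims3 and Gldc and 0.986 for Ano2 and Gldc. Cyp2a5 was least like the others, at 0.640 with Npl to 0.806 with Sptlc3. These points share the day difference that chose the genes, and the correlations are given with no test. Within the 10 LE libraries of D3.5, on the same scale, r was 0.571 for Ano2 and Rims3, 0.833 for Rims3 and Gldc and 0.643 for Ano2 and Gldc. There it was 0.780 for Sptlc3 and Cyp2a5 and -0.64 for Npl and Cyp2a5, over libraries of both genotypes. Among 15144 other candidate genes the patterns most like Rims3 were those of Gstm7 (0.992), a glutathione transferase, Ugt1a8 (0.989), a glucuronosyltransferase, and Aqp11 (0.987), a water channel. Those most like Ano2 were Gstm7 (0.990), Ugt1a8 (0.985) and Prr12 (0.983), and those most like Gldc were Cutal (0.996), Aqp11 (0.991) and Bambi (0.991), a pseudoreceptor of TGF-beta signalling.

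The Npl pattern was most like those of Plekhg5 (0.987), Nde1 (0.985) and Zdhhc17 (0.983). The Sptlc3 pattern was most like S100pbp (0.986), Bbs2 (0.981) and Klhdc1 (0.978), and the Cyp2a5 pattern like Cyp4a12a (0.987), a P450 of fatty acid hydroxylation, Prr18 (0.980) and Slc38a3 (0.974), a glutamine transporter. Over the 26 LE libraries other genes mostly ranked highest, led by Gstm1 for Npl (0.976), Chst10 for Ano2 (0.984), Slc2a12 for Rims3 (0.988) and Gldc (0.989), Zmpste24 for Sptlc3 (0.985) and Slc6a15 for Cyp2a5 (0.958). Nde1 for Npl, Aqp11 for Rims3, and Aqp11 and Cutal for Gldc were among the first 3 in both rankings. Slc38a3 had an r of 0.681 with Cyp2a5 over these libraries and Prr12 0.788 with Ano2. In LE at D3.5 Cyp4a12a stood at 0.591 ± 0.456 CPM in controls (SD, n = 4) and 3.23 ± 1.44 in knockouts (n = 6), and Aqp11 at 146 ± 16.5 and 163 ± 76.8.

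Other genes of the 6 pathways were described from lists of their members, without the 6 genes themselves. Their counts are to be read against those of all genes tested in LE, of which 10.9% were higher and 12.6% lower in the knockout at D0.5 and 7.79% and 5.7% at D3.5. Between days 21.2% rose and 22.8% fell in controls and 21.4% and 20.2% in knockouts. In the sialic acid list 16 genes were tested, of which 1 was higher and 3 lower in knockout LE at D0.5 (median log2 -0.11, all genes -0.01) and 3 higher and 2 lower at D3.5 (-0.06, all genes -0.01). Gne, which starts sialic acid synthesis, was higher in the knockout at D0.5 (0.62 ± 0.21, adjusted p = 0.0327) and at D3.5 (1.41 ± 0.28, adjusted p = 0.00116, edgeR). Siae, a sialic acid esterase, was lower at D0.5 (-0.91 ± 0.15) and higher at D3.5 (0.75 ± 0.19). Amdhd2 and Gnpda1, which act on amino sugars downstream of Npl, were lower in the knockout at D3.5 (-0.75 ± 0.21 and -0.89 ± 0.23) and rose from D0.5 to D3.5 in control LE (1.61 ± 0.19 and 1.78 ± 0.21). Neu1, the lysosomal sialidase, fell over those days (-1.49 ± 0.20), as did Cmas, which activates sialic acid (-1.29 ± 0.22).

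In the glycine and one-carbon list 24 genes were tested, with 4 higher and 3 lower in knockout LE at D0.5 (10.9% and 12.6% of all genes; median -0.08) and 3 higher and 1 lower at D3.5 (7.79% and 5.7%; median 0.22). Gcsh, another protein of glycine cleavage, was higher in the knockout at D3.5 (1.28 ± 0.35, adjusted p = 0.0127), as was the glycine transporter gene Slc6a9 (1.99 ± 0.53, adjusted p = 0.012), while Shmt1 was lower (-1.09 ± 0.28, adjusted p = 0.0084, edgeR). Between days in control LE 6 rose and 6 fell, where 21.2% and 22.8% of all genes did. Amt, a further component of glycine cleavage, rose in control LE (1.36 ± 0.15) and in knockout LE (1.32 ± 0.15), and Aldh1l2 fell in both (-4.37 ± 0.74 and -3.84 ± 0.61).

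In the sphingolipid list 31 genes were tested, with 4 higher and 10 lower in knockout LE at D0.5 (10.9% and 12.6% of all genes; median -0.33) and 5 higher and 4 lower at D3.5 (7.79% and 5.7%; median -0.12). The ceramidase gene Acer2 was higher at D0.5 (2.27 ± 0.36), and Smpd3 and Asah1, which act on sphingomyelin and ceramide, were lower (-2.27 ± 0.35 and -0.92 ± 0.15). At D3.5 Galc was higher (1.41 ± 0.25) and Smpd1 lower (-1.31 ± 0.24). Between days 6 rose and 8 fell in controls (21.2% and 22.8% of all genes) and 9 rose and 10 fell in knockouts (21.4% and 20.2%). Sptssa, a small subunit of the enzyme that holds Sptlc3, rose in control (1.35 ± 0.16) and knockout LE (1.33 ± 0.15).

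Of 14 listed genes near Cyp2a5 or its reductase Por, 6 were tested. In knockout LE at D0.5, 1 was higher and 1 lower (10.9% and 12.6% of all genes). At D3.5, 1 was higher and 0 lower (7.79% and 5.7%). Between days 2 rose and 1 fell in control LE (21.2% and 22.8%). In knockout LE 2 rose and 0 fell (21.4% and 20.2%). Cyp2f2 was higher in knockout LE at D0.5 (3.52 ± 3.03 CPM in controls, SD, n = 9, and 96.2 ± 52.3 in knockouts, n = 7, adjusted p = 1.19e-05) and at D3.5 (1.71 ± 1.70, n = 4, and 79.3 ± 67.8, n = 6, adjusted p = 0.000642, edgeR). It was thus called on both days, where Cyp2a5 was called at D3.5. Cyp2t4 rose between days in control (1.58 ± 0.42) and knockout LE (2.64 ± 0.42). Of 7 other anoctamins tested 1, Ano6, was higher in the knockout at D0.5 (1.08 ± 0.19) and at D3.5 (0.83 ± 0.25), and none was lower, where 10.9% and 7.79% of all genes were higher. Of 25 genes of RIM-linked exocytosis 1 was higher and 5 lower at D0.5 (10.9% and 12.6% of all genes; median -0.07) and 2 higher and 1 lower at D3.5 (7.79% and 5.7%; median 0.21). Erc1, an active zone scaffold protein, was lower in the knockout at D3.5 (-1.49 ± 0.21, adjusted p = 1.93e-05, edgeR). Between days 4 of the 25 rose and 7 fell in control LE (21.2% and 22.8% of all genes, list median -0.24). In knockout LE 6 rose and 4 fell (21.4% and 20.2% of all genes, list median 0.21). Erc1 and the priming factor gene Unc13d were among those that rose in control LE (2.73 ± 0.19 and 2.83 ± 0.18).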

How the data were processed

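The authors deposited estimated counts and TPM per gene for 59 libraries; they were made with kallisto 0.46.1 against GRCm39, per the submitters' processing notes. Counts were rounded and fitted per tissue, with 1 mean per group, in edgeR 4.0.16 (TMM scaling, filterByExpr, quasi-likelihood test, R 4.3.3), with Benjamini-Hochberg adjustment over all 15601 (LE), 16232 (U), 16194 (DU) or 16782 (U with DU) genes tested and a threshold of 0.05; errors of fitted values are SE. CPM used 1 TMM scaling of all libraries. Alternatives used DESeq2 1.42.0 and limma 3.58.1. Each library is 1 mouse, and numbers in the titles link tissues of a mouse: deviations from group means of U and DU in 13 mice had correlations of 0.126 to 0.723, so the block applies. The 6 genes and all lists were chosen with earlier results of these data known. Named are the 6 genes, Esr1, Pgr, Cyp2a4, up to 2 called genes per list, direction and LE comparison with the smallest adjusted p, and the 3 genes most correlated with each of the 6 over group means. Not every gene so selected is printed. The test was run on simulated LE counts in which only genes of higher counts were changed, so changes near 0 were not checked. Intervals of differences are 95%. Overlap of groups is a description, and the share of all genes without overlap is not given. Of the listed genes, 2 are not reported here and entered no list count or marker sum.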

Additional observations from a re-analysis of the deposited data

Results flagged for a closer look

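Of 46 groups of 4 to 10 libraries examined, 8 held a library set apart from the rest by a gap too large for its group. Chance sets apart about 1 in 20 where values are continuous. That rate does not hold for groups with nearly all libraries at 0, and some of the 8 flag the same library. The 8 of 46 can therefore not be read against it. In control U at D3.5, mouse 13 was the lowest for Ano2 (0.144 CPM, next 6.04), Rims3 (13.1, next 68.6) and Sptlc3 (1.4, next 4.62). Its epithelial markers summed to 524 CPM, against 550.0 in mouse 12, and its gland markers to 326 CPM, the highest of the 5 control U libraries of that day. In LE at D3.5, control mouse 16 was the highest for Sptlc3 (31.2 CPM, next 15.2). In control LE at D0.5, mouse 1 was the highest for Sptlc3 (0.172 CPM, next 0.0458) and mouse 3 for Cyp2a5 (0.611 CPM, the other 8 at 0). In knockout LE at D0.5, mouse 21 was the highest for Gldc (1.92 CPM, next 0.422) and for Cyp2a5 (0.0609 CPM, the other 6 at 0).

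The knockout to control ratio of the Npl means in LE was 26.9 at D0.5 and 0.342 at D3.5, with no overlap between genotypes on either day. The difference between the days was not tested, since the day contrast chose the gene.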

How the results depend on the processing

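The call of Npl higher in knockout LE at D0.5 and of Cyp2a5 higher at D3.5 held in all alternatives run. All these alternatives use the LE libraries whose day difference chose both genes. For Cyp2a5 they also share the knockout values in which that rise mainly lay. Counts of the 6 genes called moved as follows. Those higher in knockout LE at D0.5 went from 2 to 1 with limma voom, log2(TPM + 0.1), log2(TPM + 1) and only the groups compared, and to between 1 and 2 when single libraries were left out. Those higher in LE at D3.5 went from 1 to 2 with voom and both TPM scales, and those lower from 1 to 0 with log2(TPM + 0.1), without knockout mice 35, 36 and 37, and to between 0 and 1 when single libraries were left out. Those higher in DU at D0.5 went from 1 to 0 with voom, both TPM scales and only the groups compared (0 to 1 with single libraries left out). Those higher in U at D3.5 ranged from 0 to 1 with single libraries left out. Those with a lower day-by-genotype value in DU went from 0 to 1 with DESeq2 (0 to 1 with single libraries left out), and those lower in DU than U from 0 to 1 with the mouse as a replicate block. Of the pathway genes, those lower in knockout LE at D0.5 went from 22 to 14 on log2(TPM + 1), those higher at D3.5 from 15 to 31, those lower at D3.5 from 8 to 3 and those lower at D3.5 than D0.5 in knockouts from 22 to 10. For the last, the median shift of all genes on that scale was 0.42. The cause of these moves was not tested.

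Reversals concerned uncalled values. On log2(TPM + 0.1) and log2(TPM + 1), Rims3 was at -0.10 and -0.018 in LE at D0.5 and at 0.13 on both at D3.5, Gldc at 0.19 on both in LE at D3.5, and Ano2 at 0.34 and 0.14 in DU against U. On log2(TPM + 0.1) the Sptlc3 day-by-genotype value in U was -0.014. With voom, Cyp2a5 was at 0.030 in LE at D0.5, Gldc at 0.092 in DU at D0.5, the Sptlc3 day-by-genotype value in U at -0.17, Ano2 at 0.23 and Cyp2a5 at 0.24 in DU against U. Cyp2a5 in DU against U was at 0.022 with median-of-ratios scaling, 0.034 with DESeq2, 0.018 with only the groups compared and 0.022 with the replicate block, where Rims3 was at -0.11. The block changed no call other than Npl. Without mice 35, 36 and 37, Rims3 was at 0.20 and Gldc at 0.085 in LE at D3.5.

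With single libraries left out, knockout differences ranged from -0.22 to 0.26 (Rims3), -3.24 to 1.69 (Cyp2a5) and -0.23 to 2.03 (Gldc) in LE at D0.5, -0.42 to 0.022 (Rims3) and -0.28 to 0.050 (Gldc) in LE at D3.5, -0.33 to 0.49 (Rims3) and -0.70 to 0.26 (Gldc) in U at D0.5, and -0.15 to 0.93 (Sptlc3) and -0.87 to 0.035 (Gldc) in DU at D0.5. The Sptlc3 day-by-genotype value ranged from -0.26 to 0.47 in U and -0.15 to 0.94 in DU, and DU against U from -0.28 to 0.12 (Ano2), -0.072 to 0.13 (Rims3) and -0.45 to 0.23 (Cyp2a5). Counts near 0 limit Cyp2a5, Sptlc3 and Ano2 at D0.5.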

Other observations

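In knockout LE at D3.5, mouse 36 was the lowest of the 6 libraries for all 6 genes, an observation made after the values were seen. It held 112 CPM of Npl, 2.45 of Ano2, 288 of Rims3, 18.4 of Sptlc3, 4.77 of Cyp2a5 and 25.0 of Gldc. Its epithelial markers summed to 5119 CPM within a group range of 4816 to 8295, its macrophage markers to 234 CPM, the highest of the group, and its oviduct markers to 195 CPM, the lowest. In control LE at D3.5, preimplantation embryo markers summed to 36.9 CPM in mouse 11 and to at most 4.95 in the other 3 libraries. Mouse 11 also held the most Npl (1142 CPM) and the least Rims3 (726 CPM) of those 4. The part of embryo RNA in these levels was not tested.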
